A study of Mus musculus with 8 samples.

Results

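The transcriptional effectors of the Hippo pathway and a set of their direct targets were followed in muscle stem cells of control mice and of mice labelled as heterozygous for RhoA, a small GTPase that controls the actin cytoskeleton. The genes were fixed by name: the coactivators Yap1 and Wwtr1 (the gene for TAZ), the DNA-binding factors Tead1 and Tead4, the kinases Lats1 and Lats2, and the targets Ccn1, Ccn2, Ankrd1 and Amotl2. All 10 were found among the 57180 genes of the count and TPM tables. Muscle stem cells are the resident progenitors of skeletal muscle, and here they were sorted by flow cytometry and their RNA was sequenced without culture. There were 4 control libraries (titled WT, replicate numbers 2, 5, 7 and 8) and 4 libraries titled RhoA het (numbers 5, 6, 7 and 8), which the genotype label calls RhoA knockdown and the design text SC-RhoAfl/+. The groups are called control and het below. The age of the mice, the driver of recombination and whether a library pools animals are not given in the sources used here. Nothing says that the libraries came from separate animals, so the p-values measure the spread between libraries, which may in part be technical.

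In the Hippo pathway, the LATS kinases phosphorylate YAP and TAZ and thereby keep them in the cytoplasm. Unphosphorylated YAP and TAZ enter the nucleus, bind TEAD factors on DNA and activate genes such as Ccn1, Ccn2, Ankrd1 and Amotl2. RhoA and actin tension are known to favour nuclear YAP and TAZ, and the targets of YAP and TAZ are commonly read as a measure of that activity. Messenger RNA levels do not show where the proteins were or whether they were phosphorylated, and neither was measured here.

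The libraries held between 19138763 and 25606342 assigned fragments. Rhoa itself was read first as a check of the labels. Its mean, in CPM (counts per unit of library size, after scaling of the libraries to each other), was 325 ± 46.3 in the control libraries and 265 ± 14.4 in the het libraries (SD over 4 libraries each). The corresponding log2 fold change was -0.29 with an SE of 0.13 (unadjusted p 0.0495 and adjusted p 0.9998 in edgeR), and the groups overlapped. Rhoa was lower in het in each same-numbered pair, at 309 against 253 CPM for number 5, 273 against 253 for number 7 and 334 against 282 for number 8. With the number as a block, in the 6 paired libraries, the log2 fold change was -0.24 (SE 0.11, edgeR unadjusted p 0.0605), which did not lie under 0.05. The same 6 libraries without the block gave -0.24 (SE 0.14, edgeR unadjusted p 0.118). With the number as a random effect over all 8 libraries it was -0.26 (SE 0.099, limma unadjusted p 0.0269). The labels do not say which part of Rhoa is deleted, so a count over the whole gene is a limited check. The 12 listed muscle stem cell markers were detected in every library and summed to between 9515 and 18205 CPM. Pax7, the defining transcription factor of these cells, was measured at 112, 117, 176 and 115 CPM in control and at 78.5, 106, 99.5 and 82.7 CPM in het. Its groups did not overlap, and it was lower in het in every pair (log2 fold change -0.51, SE 0.18, edgeR unadjusted p 0.0173, adjusted p 0.9998). Pax7 was the only one of the 12 whose groups did not overlap, where 1.81% of all genes tested did not. Het averaged above control for 4 of these markers and below it for 8, and their median was -0.049 in log2 fold change. By pair, 3 of the 12 were lower in het each time, beside 12.5% of all genes tested. None was higher each time, beside 13.6%. The part of the Pax7 difference in the values below was not tested. Control replicate 2 and het replicate 6 carried 14358 and 14659 fragments of Y-linked genes, while the other libraries carried at most 2. Het replicate 6 also stood apart in endothelial markers: the 10 listed, detected in every library, summed to 692 CPM there against 74.3 to 170 CPM in the control libraries. Its erythroid markers summed to 319 CPM, against at most 143 CPM in any other library. Mural cell markers summed to 1746 CPM in het replicate 6 and 2528 CPM in het replicate 8, against 909.7 to 1356 CPM in control. In het replicates 5 and 7 they summed to 969 and 857 CPM, below the control libraries of the same numbers. By direction, 7 of 8 averaged higher in het, beside 49.9% of all genes tested. None of these markers was higher in het in every pair, beside 13.6% of all genes tested. Markers of fibro-adipogenic progenitors, the stromal cells of muscle, summed to between 5202 and 14212 CPM in control and between 8885 and 12754 CPM in het, with the defining receptor gene Pdgfra at 1.7 to 13.6 CPM. In RNA from sorted populations, a change in the number of cells of a type cannot be told apart from a change in RNA per cell.

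The order of the genes was set over all 8 libraries by their level in TPM. TPM is counts per length of a gene's annotated exons, scaled to the same total in every library. Ccn1 was by far the most abundant, at 1049 ± 240 TPM (SD, n = 8), which ranked it 138 among the 15660 genes tested. Wwtr1 followed at 183 ± 36.1 TPM, then Ccn2 at 136 ± 62.8, Ankrd1 at 57.2 ± 25.9 and Amotl2 at 27.3 ± 6.71 TPM. The remaining pathway genes were lower, with Yap1 at 15.4 ± 2.12, Lats1 at 13.5 ± 2.36, Lats2 at 9.68 ± 1.19 and Tead1 at 7.67 ± 2.10 TPM. Tead4 was close to the limit of detection at 0.290 ± 0.283 TPM. The ranges of neighbouring genes overlapped except between Ccn1 and Wwtr1, Lats1 and Lats2, and Tead1 and Tead4. Within single libraries, Wwtr1 exceeded Ccn2 in 5 of 8, Yap1 exceeded Lats1 in 5 of 8 and Lats2 exceeded Tead1 in 6 of 8, so those neighbours were not separated. The other neighbours kept their order in 8 of 8 libraries.

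**Figure D1:**
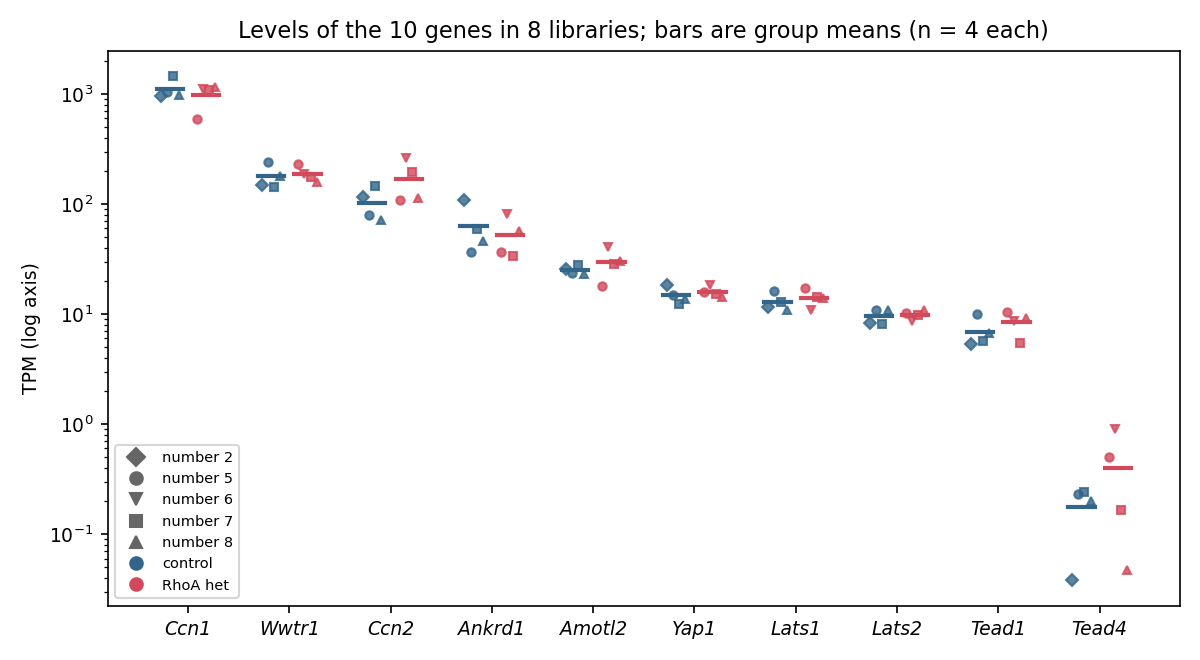
TPM (log axis) of each of the 10 genes in every library, with control in blue, het in red, one symbol per replicate number and bars at the group means (n = 4 each). Ccn1 lies above every other gene in all libraries, Tead4 lies below 1 TPM throughout, and the groups overlap for each gene.

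Annotation limits some of these levels, because fragments were counted without regard to strand and fragments lying in several genes can be lost. Another annotated gene on the same strand shares 42.4% of the exon bases of Lats2. On the opposite strand, annotated genes share 24.4% of the exon bases of Ccn2 and 24.9% of those of Ankrd1. The overlapping genes themselves were assigned at most 45 fragments in any library. The levels of Lats2, Ccn2 and Ankrd1 may therefore be understated relative to the other genes. TPM also divides by the length of all annotated exons of a gene, 13570 bases for Tead1, 9257 for Yap1 and 4779 for Wwtr1. Which transcripts were expressed was not determined here, so comparisons between genes in TPM depend on these lengths.

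Across all 15660 genes, none (0%) differed between control and het in the quasi-likelihood test of edgeR, where the Benjamini-Hochberg adjusted p had to lie under 0.05, and 2.38% had an unadjusted p under 0.05. Of the 10 YAP, TAZ, TEAD and target genes, 9 passed the filter on low counts, and Tead4 did not. None of the 9 was changed by edgeR or by DESeq2, and none had an unadjusted p under 0.05 in edgeR over all 8 libraries without a block. Under some alternatives Ccn2 had one: 0.0496 and 0.0489 in limma on log2(TPM + 1) and log2(TPM + 0.1), 0.0426 in limma where the number was a random effect, and 0.0464 in edgeR without het replicate 5. Its adjusted p stayed above 0.9 in each of these. By direction, 6 of the 9 averaged higher in het, or 66.7%, against 49.9% of all genes tested. Their median log2 fold change was 0.010, beside -0.00071 over all genes. With 1 library left out it ranged from -0.10 (without control replicate 7) to 0.15 (without control replicate 2). Control and het libraries overlapped for each of the 10 genes, where 1.81% of all genes tested did not overlap. With 4 libraries in each group, the 95% intervals still allow sizeable changes, so these results do not show that the genes were equal in the groups.

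**Figure D2:**
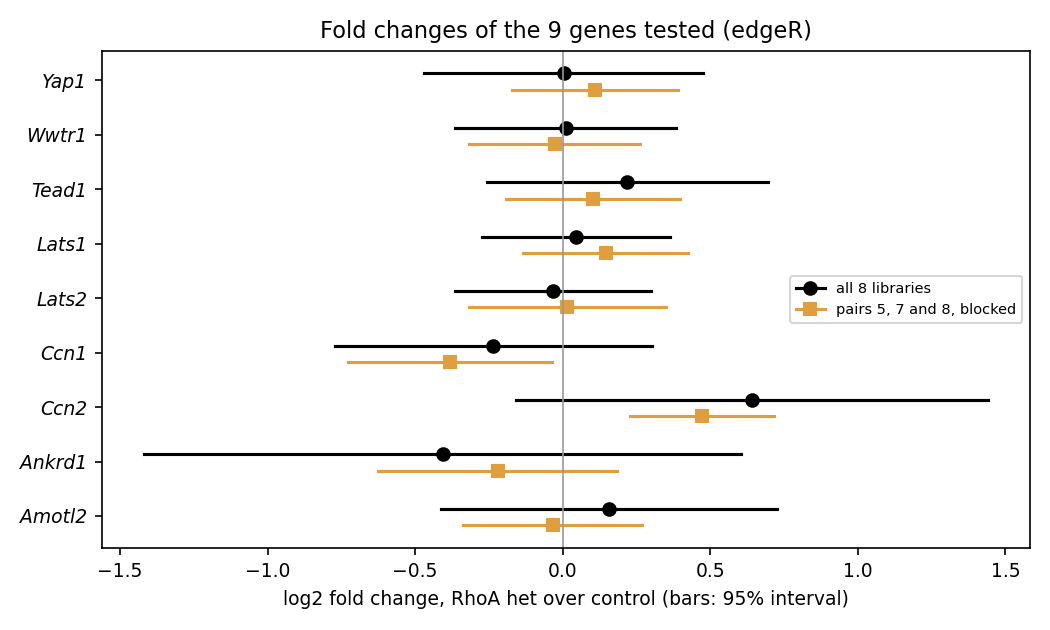
Log2 fold change of het over control for the 9 genes tested, with 95% intervals, from all 8 libraries (black circles) and from the pairs numbered 5, 7 and 8 with the number as a block (orange squares). All intervals over the 8 libraries include 0. With the block, those of Ccn1 and Ccn2 lie on opposite sides of 0, before adjustment for the number of genes.

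Yap1 and Wwtr1 encode paralogous coactivators that bind the same TEAD factors. Yap1 (ENSMUSG00000053110.14; mm39 chr9:7932000-8004597, minus strand) was measured at 65.7, 38.2, 34.4 and 41.5 CPM in the control replicates 2, 5, 7 and 8, and at 42.4, 55.3, 42.6 and 39.7 CPM in het replicates 5, 6, 7 and 8. The highest values were those of control replicate 2 and het replicate 6, and the other 6 libraries lay close together in both groups. The log2 fold change was 0.0029 (95% interval -0.47 to 0.47, SE 0.21), which corresponds to 1.00-fold with limits of 0.723 and 1.39 (two-sided exact permutation p 0.857). Wwtr1 (ENSMUSG00000027803.15; mm39 chr3:57363070-57483331, minus strand) was measured at 277, 323, 204 and 278 CPM in the control libraries and at 317, 293, 250.5 and 229 CPM in the het libraries, in the same order of replicates. Here both libraries numbered 5 were the highest and control replicate 7 the lowest. Its log2 fold change was 0.010 (interval -0.36 to 0.38, SE 0.17, exact permutation p 0.914).

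Wwtr1 was the dominant transcript of the pair in every library. It made up 92.0% ± 2.18 of their summed TPM in control and 92.1% ± 1.03 in het (SD, n = 4 each). The ratio of Wwtr1 to Yap1 in TPM was 8.16, 16.4, 11.5 and 12.998 in the control replicates 2, 5, 7 and 8, and 14.5, 10.3, 11.4 and 11.2 in het replicates 5, 6, 7 and 8. A ratio within a library does not depend on how libraries are scaled, although its size depends on the exon lengths used. The ratios of the groups overlapped, with the lowest and the highest both in control. The start of each gene carries the core letters that TEAD factors bind, GGAATG, shown in capitals with the bases around it to place the match (RefSeq promoter table, GRCm38.p6, written 5′ to 3′ along the gene, where the base before the start is numbered -1):
Yap1, bases -141 to -136, chr9:8004720-8004749, minus strand: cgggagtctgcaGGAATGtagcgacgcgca
Wwtr1, bases -136 to -131, chr3:57576029-57576058, minus strand: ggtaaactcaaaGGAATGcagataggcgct
The table lists a further start for Wwtr1 nearby, whose window holds the same match.

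TEAD factors give the complex its contact with DNA. Tead1 (ENSMUSG00000055320.19; mm39 chr7:112278525-112506014, plus strand) was measured at 28.0, 37.9, 23.3 and 29.7 CPM in the control replicates 2, 5, 7 and 8, and at 40.6, 38.0, 22.5 and 37.3 CPM in het replicates 5, 6, 7 and 8. Het replicate 7 was the lowest library of all and control replicate 7 the next, while 3 of the 4 het libraries lay near or above the highest control library. The log2 fold change was 0.22 (interval -0.26 to 0.69, SE 0.21, edgeR unadjusted p 0.328, exact permutation p 0.4). Without het replicate 7 it was 0.37, and without control replicate 5 it was 0.35. It fell to 0.13 without het replicate 5 and to 0.12 without control replicate 7. Tead4 (ENSMUSG00000030353.16; mm39 chr6:128201251-128277786, minus strand) is known as the family member induced during muscle differentiation. It was covered by 1, 5, 7 and 5 fragments in the control libraries and by 11, 22, 4 and 1 in the het libraries. Fragments were few in both groups, and het replicate 6 alone held 22 of the 38 in het. Without the filter on low counts its log2 fold change was 1.15 (SE 0.78, edgeR unadjusted p 0.161), so no difference was detectable at this depth.

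Over the TEAD family, Tead3, named after its values were seen, was the most abundant on average in TPM. In CPM, which is not divided by length, Tead1 exceeded Tead2 in every library, so the order of those members depends on the exon lengths. The shares of Tead3 were read in TPM. Tead3 took 49.4% ± 11.4 of the family's summed TPM in control and 50.1% ± 10.1 in het (SD, n = 4 each). Tead2 took 31.8% ± 10.7 and 26.6% ± 7.95, Tead1 18.3% ± 3.12 and 22.3% ± 4.99, and Tead4 0.448% ± 0.215 and 1.04% ± 0.975. The difference between the groups was smaller than either SD for Tead2 and Tead3. For Tead4 it was larger than the control SD and smaller than the het SD, and the shares rest on few fragments. For Tead1 the shares ranged from 13.8% to 26.1% over the 8 libraries and the groups overlapped.

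Lats1 and Lats2 encode the kinases that phosphorylate YAP and TAZ, and Lats2 is itself a known YAP target. Lats1 (ENSMUSG00000040021.15; mm39 chr10:7556978-7592224, plus strand) was measured at 32.9, 33.2, 28.0 and 26.2 CPM in control and at 36.1, 26.0, 31.4 and 30.6 CPM in het. The highest and the lowest library were both het, replicates 5 and 6. The log2 fold change was 0.045 (interval -0.27 to 0.36, SE 0.14, exact permutation p 0.714). Lats2 (ENSMUSG00000021959.17; mm39 chr14:57927119-57995845, minus strand) was measured at 22.4, 21.0, 16.9 and 24.8 CPM in control and at 20.3, 19.4, 20.6 and 22.8 CPM in het. All het libraries lay inside the control range. Its log2 fold change was -0.033 (interval -0.36 to 0.30, SE 0.15, exact permutation p 0.886). These kinases varied least among the 9 genes, with a pooled SD within groups of 0.181 for Lats1 and 0.179 for Lats2 in log2 CPM, beside a median of 0.334 over all genes tested. Lats1 supplied between 50.2% and 62.9% of their summed TPM in each library.

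The target genes varied more between libraries of the same group than the kinases did. The pooled within-group SD in log2 CPM was 0.403 for Ccn1, 0.430 for Amotl2, 0.612 for Ccn2 and 0.765 for Ankrd1, and 88.4% of all genes tested varied as little as Ankrd1 or less. Ccn1 and Ccn2 encode secreted matricellular proteins, Ankrd1 a nuclear and sarcomeric ankyrin repeat protein, and Amotl2 an angiomotin that binds YAP and restrains it. Promoter entries were matched for Ccn1, Ankrd1 and Amotl2. The 250 bases before each start are printed because these are the direct targets, with every GGAATG or its reverse complement CATTCC in capitals (RefSeq, GRCm38.p6, 5′ to 3′ along the gene):
Ccn1, chr3:145649986-145650235, minus strand: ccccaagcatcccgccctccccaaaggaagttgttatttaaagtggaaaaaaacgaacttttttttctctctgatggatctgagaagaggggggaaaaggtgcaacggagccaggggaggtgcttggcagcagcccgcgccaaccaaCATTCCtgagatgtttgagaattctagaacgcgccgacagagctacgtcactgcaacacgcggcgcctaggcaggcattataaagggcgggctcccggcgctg
Ankrd1, chr19:36119845-36120094, minus strand: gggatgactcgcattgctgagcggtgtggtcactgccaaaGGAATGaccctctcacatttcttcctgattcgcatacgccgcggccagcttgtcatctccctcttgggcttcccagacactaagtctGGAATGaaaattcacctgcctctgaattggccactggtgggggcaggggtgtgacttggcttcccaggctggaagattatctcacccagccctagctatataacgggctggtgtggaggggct
Amotl2, chr9:102717554-102717803, plus strand: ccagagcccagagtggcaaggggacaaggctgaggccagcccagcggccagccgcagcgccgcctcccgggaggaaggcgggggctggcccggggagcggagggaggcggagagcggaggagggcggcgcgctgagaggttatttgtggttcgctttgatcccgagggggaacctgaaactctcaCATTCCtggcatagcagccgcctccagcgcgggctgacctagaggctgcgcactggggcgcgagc
The match lies at bases -103 to -98 in Ccn1 and -65 to -60 in Amotl2, and Ankrd1 holds matches at -210 to -205 and -123 to -118. In the table of 300-base windows, 14.7% of 32851 windows held at least 1 match on either strand and 1.33% held at least 2. Among the 10 genes, 7 had an entry and 6 of those held a match: Yap1, Wwtr1, Ccn1, Ankrd1, Amotl2 and Lats2, the last at bases 5 to 10 after the start. Lats1 held none, and Tead1, Tead4 and Ccn2 were not matched to the table. A match of these letters is a description of the sequence and no evidence of binding in these cells.

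Ccn1 averaged lower and Ccn2 higher in het, neither past the threshold. Ccn1 (ENSMUSG00000028195.5; mm39 chr3:145352731-145355736, minus strand) was measured at 751, 587, 882 and 650.0 CPM in the control replicates 2, 5, 7 and 8, and at 345, 729.8, 661 and 702 CPM in het replicates 5, 6, 7 and 8. Het replicate 5 was far below every other library, and the other 3 het libraries lay inside the control range. The log2 fold change was -0.24 (interval -0.77 to 0.30, SE 0.24, edgeR unadjusted p 0.350, exact permutation p 0.457), and it was -0.043 without het replicate 5 and -0.12 without control replicate 7. Ccn2 (ENSMUSG00000019997.12; mm39 chr10:24471340-24474581, plus strand) was measured at 128, 63.0, 124 and 67.5 CPM in control and at 90.1, 242, 167 and 98.7 CPM in het. Het replicates 6 and 7 exceeded every control library, and het replicates 5 and 8 lay between the low and the high control libraries. The mean CPM of Ccn2 was 95.7 ± 35.3 over the 4 control libraries and 149 ± 70.4 over the 4 het libraries (SD), or 1.56-fold with 95% limits of 0.896 and 2.71 (log2 fold change 0.64, SE 0.36, edgeR unadjusted p 0.104, adjusted p 0.9998, exact permutation p 0.2). Without het replicate 6, the library with the high endothelial markers, the log2 fold change of Ccn2 was 0.31 (SE 0.32). The part of endothelial, mural or erythroid RNA in the value of that library was not tested.

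The ratio of Ccn1 to Ccn2 in TPM sets these genes against each other inside a library. It was 8.30, 13.2, 10.1 and 13.7 in the control replicates 2, 5, 7 and 8, and 5.43, 4.28, 5.62 and 10.1 in het replicates 5, 6, 7 and 8. Het replicates 5, 6 and 7 lay below every control library, and het replicate 8 lay inside the control range. The groups thus overlapped in 1 library. In each same-numbered pair the ratio was lower in het. For the share of Ccn1 in the summed TPM of both genes, the exact permutation p was 0.0857. The ratio is built from the values given above, so it is no separate evidence.

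Ankrd1 and Amotl2 overlapped widely between the groups. Ankrd1 (ENSMUSG00000024803.10; mm39 chr19:36089361-36097499, minus strand) was measured at 121, 29.3, 51.7 and 43.2 CPM in control and at 30.2, 75.8, 28.96 and 49.6 CPM in het. Control replicate 2 and het replicate 6 were the highest libraries, the same that were highest for Yap1. The log2 fold change was -0.41 (interval -1.42 to 0.60, SE 0.45, exact permutation p 0.6). Its sign rested on 1 library: without control replicate 2 it was 0.15, and without het replicate 6 it was -0.76. Amotl2 (ENSMUSG00000032531.16; mm39 chr9:102593871-102610617, plus strand) was measured at 62.4, 41.7, 52.5 and 47.6 CPM in control and at 32.7, 83.7, 53.7 and 57.8 CPM in het. Het replicate 6 was the highest and het replicate 5 the lowest library. Its log2 fold change was 0.16 (interval -0.41 to 0.73, SE 0.25, exact permutation p 0.771), 0.35 without het replicate 5 and -0.089 without het replicate 6.

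Libraries that share a replicate number were then set side by side. Numbers 5, 7 and 8 occur in both groups, and same-numbered libraries deviated together from their group means. The labels do not say what a number stands for, so the pairing is an assumption. Ccn2 was higher in het in 3 of 3 pairs, by 1.43-fold for number 5, 1.34-fold for number 7 and 1.46-fold for number 8. The control level of Ccn2 itself was 63.0, 124 and 67.5 CPM in these pairs, a wider span than that of the ratios. With the number as a block, the log2 fold change of Ccn2 was 0.47 (interval 0.23 to 0.72, SE 0.11), with an unadjusted p of 0.00133 and an adjusted p of 0.393 over 15714 genes in edgeR. The same 6 libraries without the block gave 0.45 (SE 0.33, edgeR unadjusted p 0.202). Ccn1 was lower in het for number 5 (0.588-fold) and number 7 (0.749-fold) and higher for number 8 (1.08-fold), and its blocked log2 fold change was -0.38 (SE 0.16, edgeR unadjusted p 0.0337, adjusted p 0.901).

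In CPM, Lats1 was the other gene higher in het in every pair, by 1.09-fold, 1.12-fold and 1.17-fold for numbers 5, 7 and 8. Its blocked log2 fold change was 0.15 (SE 0.13, edgeR adjusted p 0.933). Ccn2 and Lats1, 2 of 9 genes (22.2%), stand beside 13.6% of all genes tested that were higher in every pair in CPM. No gene of the 9 was lower in every pair, beside 12.5%. None of the 9 passed an adjusted p of 0.05 with the block (0.0127% of all genes did), and 2 had an unadjusted p under 0.05, Ccn1 and Ccn2, beside 5.26% of all genes. Myofibre markers differed in the same comparison: 10 of the 12 listed were lower in het in every pair, and both genes that passed with the block were on that list. No listed gene was at 0 throughout. Their summed CPM was 528, 240.4 and 96.9 in the control replicates 5, 7 and 8, and 218, 80.5 and 55.9 in the het libraries of the same numbers, while control replicate 2 had 87.8 and het replicate 6 had 498. The part of myofibre RNA in the paired results was not tested. In CPM, Yap1, Wwtr1, Tead1, Lats2, Ankrd1 and Amotl2 differed in different directions in different pairs. In log2(TPM + 1), Yap1 was higher in het in every pair as well, by 0.10, 0.29 and 0.053 for numbers 5, 7 and 8. Ankrd1 was 0.560-fold in het for number 7 and 1.03-fold and 1.15-fold for numbers 5 and 8.

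**Figure D3:**
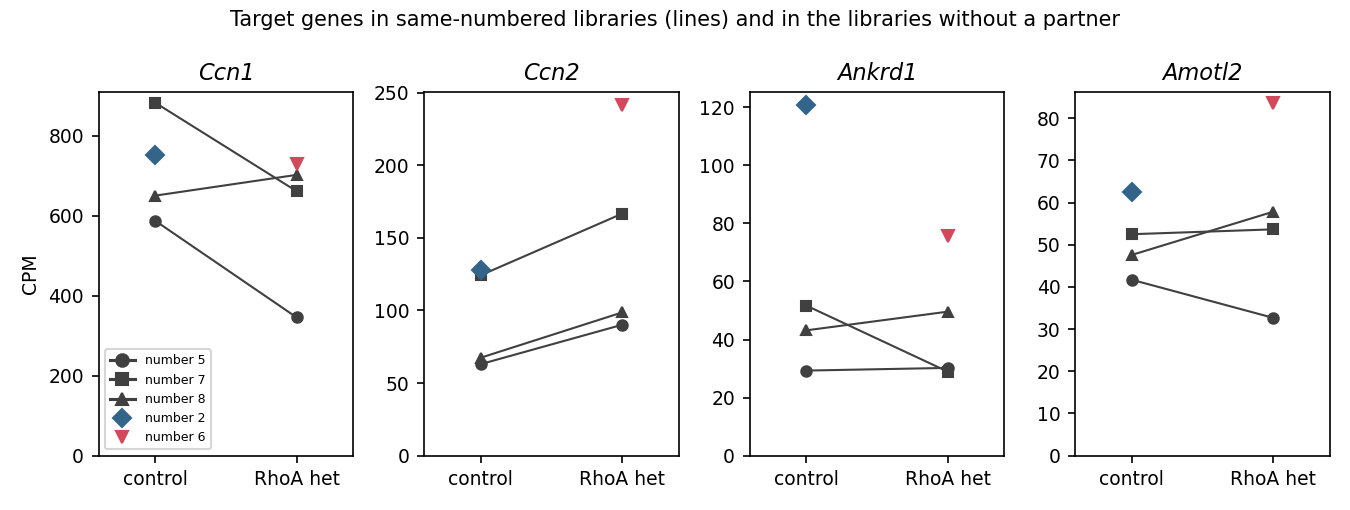
CPM of the 4 target genes in control and het, with lines joining libraries of the same number and single symbols for control replicate 2 and het replicate 6. The lines of Ccn2 slope upward in all 3 pairs, from 63.0 to 90.1, 124 to 167 and 67.5 to 98.7 CPM, while those of Ccn1, Ankrd1 and Amotl2 run in both directions.

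Several genes were high or low in both libraries of a replicate number. Libraries numbered 5 held high Wwtr1 (323 and 317 CPM) and Tead1 (37.9 and 40.6 CPM), and they were the lowest for Ccn1 and for Amotl2 in both groups. Libraries numbered 7 were the lowest for Tead1 in both groups, at 23.3 and 22.5 CPM. Control replicate 2 and het replicate 6, the libraries with Y-linked fragments, were the highest for Yap1 and for Ankrd1. Ccn1 is known as an immediate early gene that also responds to handling of tissue, so a list of 24 dissociation response genes was read in the same libraries. Its mean log2 CPM was 8.90 and 8.86 in the libraries numbered 5, 9.80 in control replicate 2, 9.85 in het replicate 6, and 9.40 to 9.63 in the others. The libraries lowest and highest for this list were thus also low and high for Amotl2. The summed CPM of the list ranged from 28936 to 59222 in control and from 26409 to 54142 in het, no listed gene was at 0 throughout, and the part of this response in the levels of the target genes was not tested.

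**Figure D4:**
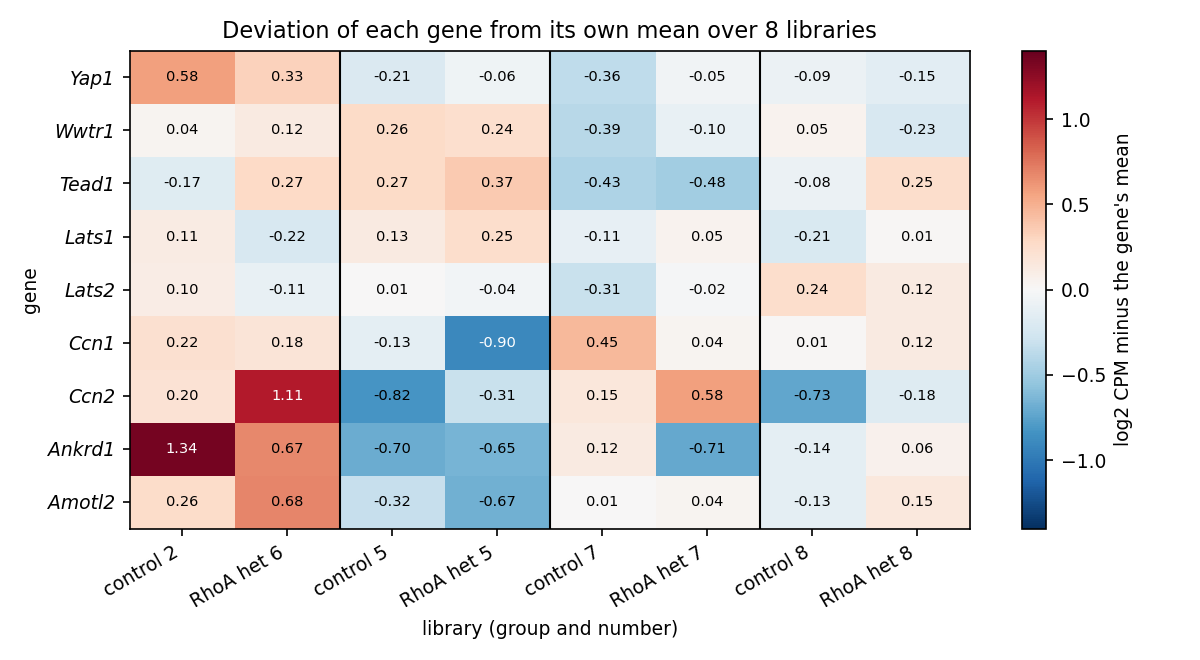
Log2 CPM of each of the 9 genes minus its own mean over the 8 libraries (colour and printed value), with libraries in columns and same-numbered libraries side by side. Ankrd1 deviates by 1.34 in control replicate 2, Ccn2 by 1.11 in het replicate 6 and Ccn1 by -0.90 in het replicate 5, and Yap1 is positive only in control replicate 2 and het replicate 6.

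The genes whose log2 CPM was most like that of a member over the 8 libraries were read from 7906 named genes of at least 10 CPM. Pxdc1, Clu and Tnfaip6 were most like Yap1, with Pearson's r of 0.984, 0.975 and 0.971. Phc2, Ctnnbip1 and Mob4 were most like Wwtr1 (r of 0.975, 0.952 and 0.951). For Ccn1 they were Slc25a22, Cyb5d1 and Nectin2, each with an r of 0.958 or 0.959. For Ccn2 they were Fzd4, Slc39a14 and Arrdc3 (r of 0.967, 0.952 and 0.9496). With so few libraries high values are common: 70 genes had an r over 0.9 with Yap1, 25 with Wwtr1, 32 with Ccn1 and 19 with Ccn2. These are descriptions over libraries that share replicate numbers and so are not independent.

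The rest of the pathway was read from 3 lists. Of 24 upstream Hippo genes, the kinases, scaffolds and regulators above LATS, all were tested and none was changed in edgeR or DESeq2. None had an unadjusted p under 0.05 in edgeR, over all 8 libraries without a block or with the block. 13 averaged higher and 11 lower in het, and their median log2 fold change was 0.0087. The most abundant were Frmd6, a FERM domain protein of the pathway, at 325 ± 31.2 TPM in control and 326 ± 47.3 TPM in het, the LATS cofactor Mob1a at 118 ± 28.9 and 120 ± 13.9 TPM, and Rassf1 at 39.1 ± 9.37 and 39.5 ± 7.18 TPM (SD, n = 4 each). The smallest p belonged to the kinases Taok1 (log2 fold change 0.22, SE 0.14, edgeR unadjusted p 0.147) and Stk38l (0.46, SE 0.32, p 0.1796) and to the scaffold Wwc1 (-0.64, SE 0.45, p 0.186), which was at 0.504 TPM or less in every library. The core kinase Stk3 was higher than its paralogue Stk4, at 32.0 and 8.73 TPM on average. Both were named after their values were seen.

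Among 19 partners of YAP, TAZ and TEAD, 18 were tested, and Vgll1 had no fragment in any library. None was changed in edgeR or DESeq2, and none had an unadjusted p under 0.05 in edgeR over all 8 libraries without a block. With the block 2 had one in edgeR, Tead2 and Vgll4, beside 5.26% of all genes. Over all 8 libraries 6 were higher and 12 lower, with a median log2 fold change of -0.065. The 14-3-3 genes Ywhae, Ywhaz and Ywhab, whose proteins hold phosphorylated YAP in the cytoplasm, were the most abundant, at 1552, 1008 and 372 TPM over the 8 libraries. Tead2 had the smallest p, with 12.7 ± 6.83 TPM in control and 10.04 ± 3.36 TPM in het (log2 fold change -0.37, SE 0.31, edgeR unadjusted p 0.266). With the block Tead2 had -0.43 (SE 0.16, edgeR unadjusted p 0.0196, adjusted p 0.821). Vgll4 had 0.014 without the block and -0.26 with it (SE 0.11, edgeR unadjusted p 0.0430, adjusted p 0.927). Amot, which binds YAP as Amotl2 does, had a log2 fold change of -0.22 (SE 0.21), and -0.15 with the block (SE 0.23). The phosphatase gene Ptpn14, which is also a YAP target, had 0.25 (SE 0.25), and -0.059 with the block (SE 0.16).

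The list of 26 other YAP and TAZ targets was mixed as well. Of the 25 tested, none was changed in edgeR or DESeq2. None had an unadjusted p under 0.05 in edgeR over all 8 libraries without a block. With the block 1 had one, Anxa3, beside 5.26% of all genes. Over all 8 libraries 18 were higher and 7 lower, with a median log2 fold change of 0.084. Their median was -0.040 without het replicate 6. Anxa3, which encodes a calcium-dependent membrane-binding annexin, was measured at 95.8, 141, 241 and 248 CPM in control and at 218, 229, 291 and 366 CPM in het. Het replicates 7 and 8 exceeded every control library, and control replicates 2 and 5 lay below every het library. Its log2 fold change was 0.61 (SE 0.30, edgeR unadjusted p 0.0760), and 0.46 with the block (SE 0.12, unadjusted p 0.00274, adjusted p 0.458 in edgeR). Nt5e, the gene of the ecto-enzyme CD73, had 0.78 (SE 0.44), with 22.0 CPM in het replicate 6 and 4.8 to 7.3 CPM elsewhere. With the block, which leaves that library out, Nt5e had -0.013 (SE 0.25). The tissue factor gene F3 had -0.51 (SE 0.44), with 131 CPM in control replicate 2 and 32.3 to 68.2 CPM elsewhere. With the block F3 had 0.11 (SE 0.13). Anxa1, Fstl1 and Axl were the most abundant, at 562, 369.6 and 295 TPM, with log2 fold changes of -0.084, 0.16 and 0.047.

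**Figure D5:**
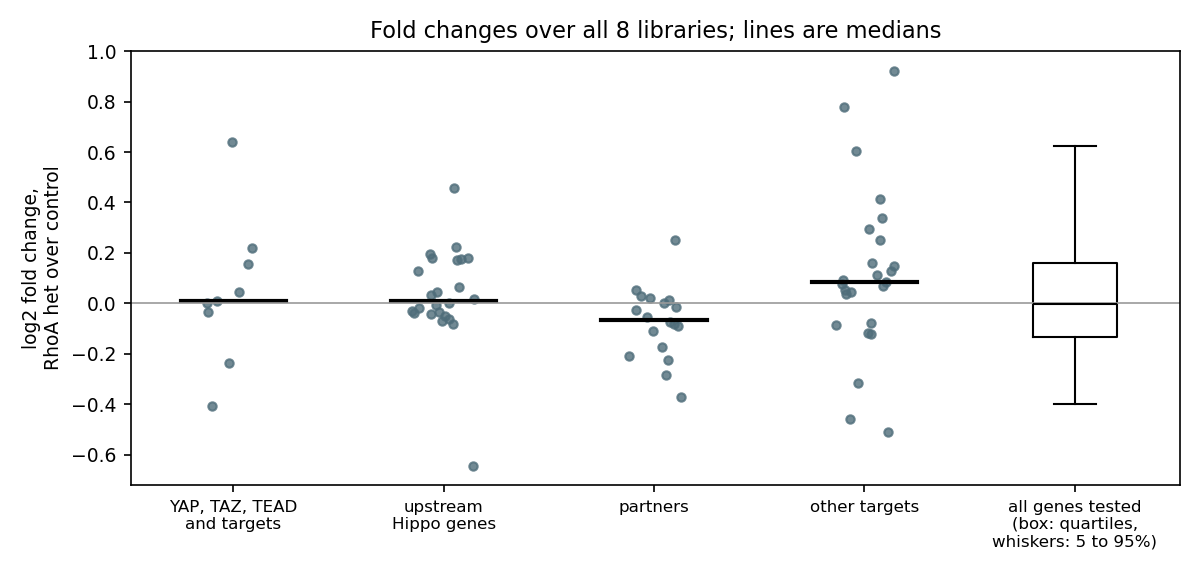
Log2 fold change of het over control for each gene tested in the YAP, TAZ, TEAD and target set and in the 3 pathway lists (points, with lines at the medians), beside a box of all genes tested. The medians are 0.010, 0.0087, -0.065 and 0.084, close to that of all genes, and Ccn2 is the highest point of the first column at 0.64.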

How the data were processed

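RNA sequencing of muscle stem cells from 4 control and 4 RhoA het (het) libraries was analysed, with group and number taken from the titles. The authors deposited tables of raw counts and of TPM. The file headers record featureCounts 1.6.4 run on paired fragments against exons of the GENCODE mouse release 34 annotation (mm39). The command set no strand, multi-mapping or overlap option and named 10 alignment files, of which the 8 in the table were used. The submitters' processing notes name FastQC, cutadapt, STAR, featureCounts and DESeq2. The deposited TPM could be recomputed from the counts and gene lengths, with a largest relative difference of 4.97e-15. Symbols were matched by identifier for 51884 of 57180 genes.

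All tests were fitted on the whole count table. The edgeR filter left 15660 genes, TMM gave the library scaling, and the test was the edgeR quasi-likelihood test (edgeR 4.0.16, R 4.3.3, Benjamini-Hochberg, threshold 0.05) without covariates. CPM uses the TMM-scaled sizes, where control replicate 2 had a factor of 0.852 and the others 0.968 to 1.07; TPM does not. Log2 CPM has a prior count of 2. Exact permutation tests cover 70 assignments, and the smallest p they can give is 0.0286. The edgeR fit without a block was also run on simulated counts, and the outcome is not given here. Replicates differed by far more than counting noise (lowest chi-square over its degrees of freedom 43.0), so none was a copy.

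Replicate numbers 5, 7 and 8 come from the titles. Deviations from the group means correlated at 0.574, 0.349 and 0.500 between same-numbered libraries, and the block was taken as a pairing. Correlations between differently numbered libraries are not given beside these. The labels do not say what a number stands for, so the blocked results rest on an assumed pairing. Alternatives were DESeq2 size factors, total counts, other filters, DESeq2 (1.42.0), limma (3.58.1) on log2(TPM + 1) and log2(TPM + 0.1), the block, and leaving out each library. Named genes are the 10 members, Rhoa, the 3 with the smallest p and the 3 most abundant of each pathway list, the 3 most like Yap1, Wwtr1, Ccn1 and Ccn2, and cell type markers whose values moved with a member. Tead3, Stk3, Stk4, Vgll1 and Vgll4 fall outside that rule and were named after their values were seen. Members and lists were chosen with earlier results of these data known.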

Additional observations from a re-analysis of the deposited data

Results flagged for a closer look

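Libraries were compared with the others of their group over 46 sets of 4 (9 genes and 14 list means in each group), by the gap to the nearest library as a share of the range. By chance 5% of such sets, or 2.3, would stand out, and 4 did. Ccn1 in het replicate 5 had a log2 CPM of 8.43, against values of the other het libraries between 9.37 and 9.51. Tead1 in het replicate 7 had a log2 CPM of 4.50, below 5.23 to 5.35 in the others. The mean log2 CPM over the 9 tested genes of the YAP, TAZ, TEAD and target set was 6.44 in control replicate 2 and between 5.97 and 6.04 in the other control libraries. For the endothelial markers the average log2 CPM reached 5.93 in het replicate 6 and between 2.89 and 3.17 in the other het libraries.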

How the results depend on the processing

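None of the 9 genes tested passed an adjusted p of 0.05 under any of the 18 alternatives, in which their lowest adjusted p was 0.393 (Ccn2 with the replicate block). Tead1, Ccn1 and Ccn2 kept their direction under all 18. With 1 library left out, Tead1 ranged from 0.12 to 0.37, Ccn1 from -0.34 to -0.043 and Ccn2 from 0.31 to 0.82. Of 162 alternative values of the 9 genes, 25 had the opposite sign, and the cause was not tested. Yap1 had a log2 fold change of -0.0020 with DESeq2 size factors, -0.0042 without the filter and -0.0020 in DESeq2. Lats2 had 0.019 with total counts, 0.054 and 0.060 in limma on log2(TPM + 1) and log2(TPM + 0.1), 0.016 with the replicate block, 0.00059 in the same 6 libraries unblocked and 0.011 with the number as a random effect. With the block and unblocked, Wwtr1 had -0.028 and -0.037, and Amotl2 -0.035 and -0.0023. Leaving out 1 library gave -0.11 to 0.24 for Yap1, -0.10 to 0.095 for Wwtr1, -0.037 to 0.12 for Lats1, -0.13 to 0.046 for Lats2, -0.76 to 0.15 for Ankrd1 and -0.089 to 0.35 for Amotl2. The upstream Hippo median was 0.082 and 0.088 in the limma fits and -0.015 to 0.091 with 1 library left out. With the block 2 of all genes were changed in place of 0, and it changed no call among the listed pathway genes. Genes at an unadjusted p under 0.05 numbered 372 in edgeR over all libraries, 912 without the filter, 827 with the block, 839 with the random effect and 703 without control replicate 5. The spread between 4 libraries limits what could be seen: the widest interval, that of Ankrd1, ran from 0.374-fold to 1.52-fold. Tead4 was limited by depth.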

Other observations

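The letters GGAATG or CATTCC also occurred in other genes of the pathway. Of the partners of YAP, TAZ and TEAD, 16 had a promoter entry and 7 of them a match (43.8%), as did 5 of 15 other targets (33.3%) and 4 of 19 upstream Hippo genes (21.1%). Of all genes with an entry, 16.6% had a match in some window. These are counts of letters in 300-base windows, without a test.

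The TEAD paralogues differed in which libraries were high. Tead2 was at 28.5 CPM in control replicate 5 and 10.8 CPM in het replicate 6, and Tead1 was at 37.9 and 38.0 CPM in the same libraries. The share of Tead2 in the family's summed TPM ranged from 18.1% to 44.9% over the 8 libraries, more widely than that of Tead1.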
